A study of Mus musculus with 12 samples.

Results

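Differentiating female mouse embryonic stem (ES) cells labelled as knockout of Sirt7 were compared with wild type cells on day 7 after withdrawal of leukaemia inhibitory factor (LIF, the cytokine that holds ES cells undifferentiated). The comparison took the 6 day 7 libraries out of 12 in the study, 3 of each genotype, from the gene and the transcript count tables, and covered the 19235 genes with enough counts to be tested. All libraries were polyA RNA of C57BL6/CAST hybrid cells, in which the parental chromosomes differ at many single bases, and the other 6 were of the same genotypes at day 0 with LIF. A separate treatment label reads LIF, None and LIF in knockout replicates 1 to 3 and None, LIF and None in wild type, on both days. It therefore goes against the stated withdrawal in 3 day 7 libraries and was not used for grouping. The labels do not say which part of Sirt7 was deleted, how many clones were used or whether replicates were separate cultures, so that p-values measure only the spread between these libraries, which may be technical.

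SIRT7 is a sirtuin, an enzyme that uses NAD+ to remove acetyl and other acyl groups from proteins. It resides mainly in the nucleolus and on chromatin, where it is known to act on RNA polymerase I transcription, ribosome biogenesis and histone H3. When LIF is withdrawn, mouse ES cells leave the naive state and enter germ layer programmes, and their protein synthesis and energy metabolism are remodelled with them.

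Day 7 libraries held between 25190483 and 69079368 counts, and those of wild type spanned a wider range than those labelled knockout (28258952 to 36917069). Replicates of a group differed beyond counting noise in every pair: chi-square divided by its degrees of freedom was 24.8 to 26.7 for pairs of labelled knockout libraries and 35.9 to 60.2 for wild type pairs. Values below are CPM, counts scaled to a common library size with TMM factors, in the order of replicates 1, 2 and 3, and differences are log2 values of labelled knockout minus wild type with their standard error (SE).

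The label was checked first on Sirt7 itself (chr11:120618372-120625240, GRCm38, minus strand). Sirt7 stood at 25.1, 20.1 and 23.8 CPM in the libraries labelled knockout and at 10.2, 10.6 and 15.3 CPM in wild type. In the gene counts each library labelled knockout was thus above each wild type library, the opposite of what the label names. The difference of 0.94 (SE 0.21) did not pass over all genes (edgeR adjusted p = 0.299, DESeq2 adjusted p = 0.00965). Allele-resolved Sirt7 reads, not scaled to library size, overlapped between the groups. They were 96, 245 and 260 against 257, 261 and 118 from genome 1, and 336, 250 and 218 against 313, 322 and 112 from genome 2. Sirt7-201, the annotated form with the full coding sequence of 402 codons, had 0, 0 and 2 counts in the labelled knockout against 184, 56 and 64 in wild type. On day 0 the same form went the other way, with 93, 36 and 305 counts against 12, 5 and 2, so that the groups were apart on both days in opposite directions. Sirt7-203, a form with a retained intron, had 443, 115 and 343 counts against 144, 214 and 122. Neither the gene count nor a single form therefore identifies the knockout on both days. The groups are named by their labels alone, and each direction below is that of the libraries so labelled and would turn if the labels were exchanged. Of the 7 sirtuin genes 4 were positive, and none passed by edgeR. Sirt5, a mitochondrial sirtuin that removes succinyl groups, was apart in the other direction, with 2.65, 2.74 and 3.39 CPM against 4.46, 3.40 and 4.95 CPM (-0.54, SE 0.19).

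Few single genes separated the genotypes at day 7. With an adjusted p of at most 0.05, edgeR called 5 of 19235 genes (0.026%), 1 higher and 4 lower in the libraries labelled knockout, while DESeq2 called 163 (0.847%), 40 higher and 123 lower, with all 5 among them. The edgeR count was 13 without knockout replicate 1, 8 without knockout replicate 3 and 8 without wild type replicate 2, and the 5 genes were called in each of these fits. Many genes leaned downward: 2463 genes (12.8%) were lower in every labelled knockout library than in every wild type library and 1289 (6.7%) were higher. At an unadjusted p under 0.05 there were 1109 lower genes (5.77%) and 464 higher ones (2.41%). The median difference of all genes was -0.02, the quartiles were -0.19 and 0.17, and 45.1% were positive. Counts for the gene groups below are to be read against these shares. The direction of the imbalance was the same in every count, but its members were mostly small differences.

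Mrps23 (chr11:88204388-88211507), which encodes a protein of the small subunit of the mitochondrial ribosome, was the only gene called higher. It had 36.7, 36.4 and 36.5 CPM in the labelled knockout and 16.6, 17.0 and 14.1 CPM in wild type. The 3 labelled knockout libraries were nearly identical and all above the wild type ones, and Mrps23 rose by 1.20 (SE 0.10, adjusted p = 0.00183), or 2.30-fold. It was higher on day 0 too, by 1.35 (adjusted p = 0.000547), with means of 51.1 ± 3.23 and 20.02 ± 0.321 CPM (SD, n = 3). Allele-resolved Mrps23 reads at day 7, not scaled to library size, did not show this rise. They were 266, 232 and 217 against 405, 462 and 191 from genome 1. From genome 2 they were 585, 438 and 464 against 721, 1092 and 375. Labelled knockout replicate 2 and wild type replicate 3, with library totals of 28258952 and 25190483, thus had similar reads. Why the readouts differ was not tested.

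H2aj (chr6:136808244-136810074), an H2A histone gene, had the largest negative difference among the genes plotted with it. It stood at 6.93, 10.9 and 11.9 CPM in the labelled knockout against 66.6, 54.2 and 53.3 CPM in wild type. The groups were far apart, and H2aj fell by 2.55 on the log2 scale (SE 0.27, adjusted p = 0.00794), or 5.88-fold. On day 0 its level was 113 ± 27.8 and 127 ± 36.2 CPM (SD, n = 3), with a difference of -0.17. Nearly all allele-resolved H2aj reads came from genome 2 in both genotypes, 97.9 to 100% in the labelled knockout and 97.5 to 99.5% in wild type. Genome 2 reads, not scaled to library size, were 243, 560 and 238 against 390, 458 and 611, so that the groups overlapped. Labelled knockout replicate 2 had more of them than wild type replicates 1 and 2, whose libraries were larger. These reads thus did not repeat the separation of the gene counts, and the cause was not tested.

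The other called genes were expressed on day 0 and nearly silent at day 7 in both genotypes. Morc1 (chr16:48431237-48630900), which encodes a germline ATPase that silences transposons, had 0.0519, 0 and 0.0645 CPM against 0.532, 0.757 and 0.542 CPM (-3.85, SE 0.42, adjusted p = 0.00794), while its day 0 level was 172 ± 18.3 and 156 ± 19.8 CPM. Aoah (chr13:20794113-21036617), which encodes an enzyme that removes acyl chains from bacterial lipopolysaccharide, had no count in the labelled knockout and 9, 16 and 6 in wild type. Set against a floor of 3 counts over the group, Aoah was lower by at least 7.51-fold at an adjusted p of 0.00794. Ankrd45 (chr1:161142691-161170498), an ankyrin repeat gene, had no count against 12, 26 and 14, which makes it lower by at least 12.6-fold at an adjusted p of 0.00874. The calls of Aoah and Ankrd45 rest on 31 and 52 reads in wild type, and on day 0 both genotypes expressed Aoah (25.5 and 22.7 CPM) and Ankrd45 (6.17 and 6.94 CPM). Morc1 belongs to a list of 18 germline genes, of which 14 were tested, 5 were positive and 2 were lower in every labelled knockout library; edgeR and DESeq2 called Morc1 alone of them.

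**Figure D1:**
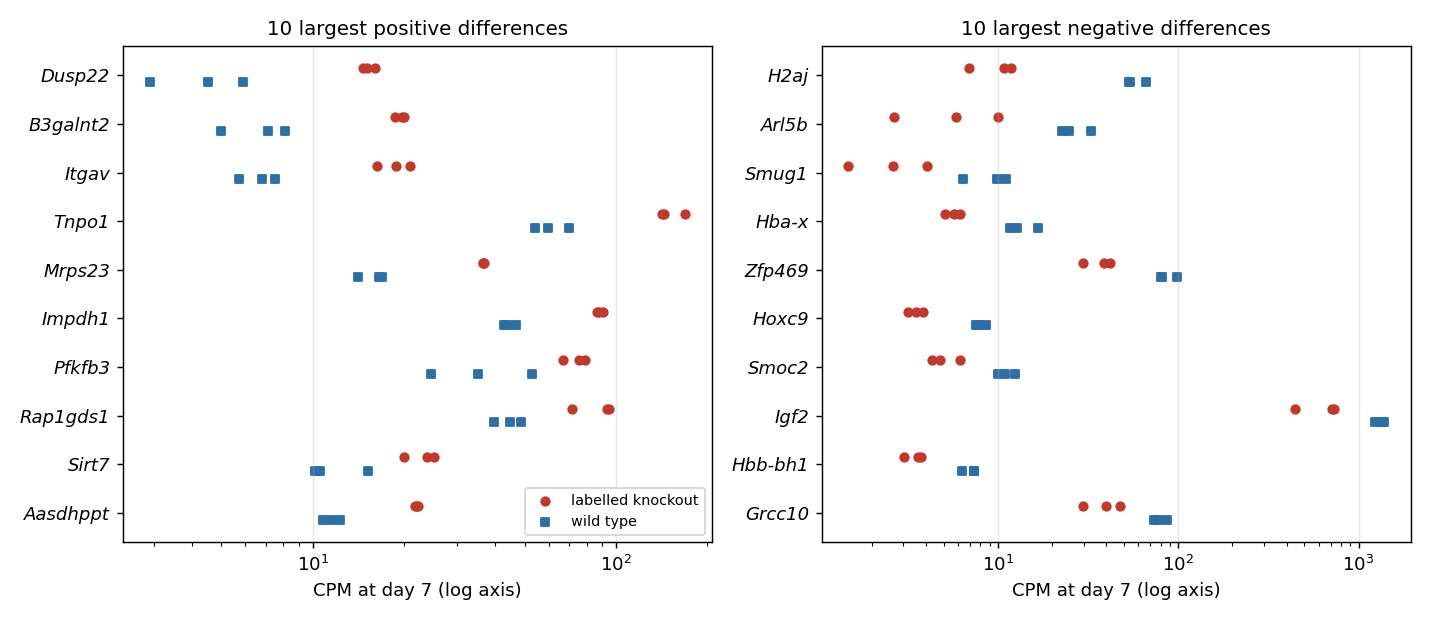
CPM at day 7 (log axis) of the 10 genes with the largest positive and the 10 with the largest negative difference among those with an unadjusted p of at most 0.01 and groups apart; each point is 1 library, circles for labelled knockout and squares for wild type. Of these 20 genes Mrps23 and H2aj passed over all genes; the 3 circles of Mrps23 lie at 36.4 to 36.7 CPM, above squares at 14.1 to 17.0 CPM.

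Among the genes with the largest differences that did not pass, several encode signalling, adhesion and transport proteins. Dusp22, a phosphatase of the JNK pathway, had 14.7, 15.1 and 16.0 CPM against 4.51, 5.91 and 2.90 CPM (1.77, SE 0.32, adjusted p = 0.161). Itgav, the integrin alpha V subunit that pairs with several beta subunits to bind fibronectin and vitronectin, had 16.4, 18.9 and 20.9 CPM against 5.71, 6.83 and 7.55 CPM (1.48, SE 0.33). Tnpo1, an import receptor that carries RNA-binding proteins into the nucleus, had 169, 144 and 142 CPM against 54.2, 70.04 and 59.5 CPM (1.305, SE 0.34). Groups that do not overlap were a condition for entry to this set of genes and are no further support for them. On day 0 the difference of Tnpo1 was -0.67, and that of Impdh1, which makes guanine nucleotides, was -1.18 against 0.99 (SE 0.27) at day 7. Allele-resolved reads at day 7, not scaled to library size, did not show the rise of Tnpo1 or Impdh1. Genome 1 reads were 848, 246 and 294 against 885, 1548 and 606 for Tnpo1, and genome 2 reads 1056, 797 and 852 against 1100, 1955 and 730. For Impdh1 they were 224, 191 and 174 against 300, 415 and 636, and 217, 122 and 145 against 292, 456 and 145. Itgav reads, all from genome 1, were 219, 191 and 185 against 126, 319 and 108. B3galnt2, a glycosyltransferase of dystroglycan, was higher on both days (1.53 at day 7, SE 0.32, and 1.37 at day 0). Rap1gds1 (0.96, SE 0.17) and Aasdhppt (0.93, SE 0.29) complete the genes plotted with the largest positive differences besides Pfkfb3, which is described with glycolysis.

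On the lower side, Arl5b, a small GTPase of the Golgi, had 10.04, 2.67 and 5.84 CPM against 24.9, 22.8 and 32.7 CPM (-2.11, SE 0.53, adjusted p = 0.371). Smug1, a glycosylase that removes uracil from DNA, had 4.05, 2.63 and 1.48 CPM against 11.1, 6.40 and 9.91 CPM (-1.74, SE 0.41). Zfp469, which GENCODE M21 annotates at this locus as a long noncoding RNA, had 41.8, 29.8 and 38.8 CPM against 80.7, 98.4 and 81.0 CPM (-1.24, SE 0.30, adjusted p = 0.304). DESeq2 called all 3 of these genes, Zfp469 with an adjusted p of 9.53e-08. Smoc2, a secreted calcium-binding matrix protein gene, had a difference of -1.14 (SE 0.22) and Grcc10 one of -1.02 (SE 0.24). Of the 158 genes that DESeq2 alone called, 107 were lower in every labelled knockout library, 33 were higher in every one and 18 overlapped between groups.

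Naive pluripotency genes were far below their day 0 levels in both genotypes. Nanog, a core pluripotency factor, was at 31.4, 32.6 and 33.2 CPM in the labelled knockout and 29.2, 28.3 and 26.6 CPM in wild type, against day 0 means of 1020 and 1028 CPM. Pou5f1 had 155 to 160 CPM against 136 to 157 CPM and overlapped between groups. The summed CPM of 21 naive genes was 534 to 559 in the labelled knockout and 503 to 556 in wild type, and their median difference was -0.11, with 9 positive. None passed by edgeR, 1 did by DESeq2, and at an unadjusted p under 0.05 there were 3 higher and 6 lower genes. The one DESeq2 called was Dppa5a, an RNA-binding protein gene of naive cells, with 12.5, 9.90 and 9.77 CPM against 18.4, 17.1 and 15.9 CPM (-0.68, SE 0.11, edgeR adjusted p = 0.0893). The labelled cell type, ES cells, thus describes the origin of the day 7 cells rather than their state. The 14 genes of the formative and primed state had a median difference of 0.00, with 7 positive, and none passed by edgeR or DESeq2 or reached an unadjusted p under 0.05.

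Genes of the early mesoderm held differences in both directions. Among 14 genes of the primitive streak and nascent mesoderm, 5 were higher in every labelled knockout library and 3 lower, with a median of 0.03. T, the brachyury transcription factor of the streak, had 158, 158 and 161 CPM against 129, 144 and 131 CPM (0.24, SE 0.15). Eomes, another T-box factor of the streak, had 121, 125 and 121 CPM against 102, 113 and 103 CPM (0.20, SE 0.12). Mixl1 (0.15, SE 0.16), Wnt3 (0.24, SE 0.19) and Pdgfra (0.12, SE 0.13) were apart in the same direction, and Gsc, Mesp1 and Evx1 in the other. None of these differences reached an unadjusted p under 0.05.

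The 16 genes of lateral plate and extraembryonic mesoderm leaned lower, with 3 positive, a median of -0.19 and 7 lower in every labelled knockout library. Their summed level was 2929 to 3092 CPM against 3385 to 3786 CPM. Hand1, a bHLH factor of extraembryonic and cardiac mesoderm, had 1538, 1484 and 1502 CPM against 2066, 1941 and 1828 CPM (-0.37, SE 0.09, adjusted p = 0.299; DESeq2 adjusted p = 0.00276). Pitx1, a homeobox factor of lateral plate and hindlimb, had 79.0, 72.3 and 80.6 CPM against 124, 116 and 95.6 CPM (-0.53, SE 0.19), and Twist1 had 53.4, 54.1 and 51.0 CPM against 68.98, 67.4 and 67.0 CPM (-0.36, SE 0.15). The labelled knockout libraries were below each wild type library for all 3 genes. Hand2, Msx1, Bmp4 and Osr1 were the other members that did not overlap. No member passed by edgeR, 2 did by DESeq2 and 3 had an unadjusted p under 0.05. In bulk RNA, fewer cells of a type and less RNA per cell cannot be told apart.

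Hox genes, the homeobox genes that encode position along the body axis, showed the lowest median of all groups. Of 39 listed genes 35 were tested (Hoxa2, Hoxa4, Hoxa6 and Hoxd12 were not), and Hoxc12 had no count at day 7. Only 3 were positive, the median was -0.57, and 18 were lower and 0 higher in every labelled knockout library, beside 12.8% and 6.7% of all genes. No Hox gene passed by edgeR, 4 passed by DESeq2 and 8 had an unadjusted p under 0.05, all of them lower. The cluster medians were -0.76 for Hoxa, -0.47 for Hoxb, -0.67 for Hoxc and -0.40 for Hoxd. Leaving out any 1 library kept the median between -0.58 and -0.50.

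The Hox genes with the smallest p were Hoxa7, Hoxb6, Hoxc9 and Hoxd9. Hoxa7 had 0.648, 0.912 and 0.677 CPM against 3.45, 2.87 and 2.13 CPM (-1.92, SE 0.34, adjusted p = 0.144). Hoxb6 had 37.6, 39.6 and 41.3 CPM against 69.2, 57.6 and 55.3 CPM (-0.62, SE 0.13, adjusted p = 0.345). Hoxc9 had 3.19, 3.51 and 3.84 CPM against 7.86, 8.55 and 7.55 CPM (-1.19, SE 0.32, adjusted p = 0.422). Hoxd9 differed by -0.57 (SE 0.17), and the groups did not overlap for any of the 4. Hoxd1, an anterior gene, lay near 0 (-0.02, SE 0.32). The 3 positive genes, Hoxb3 (0.37, SE 0.57), Hoxb8 (0.19) and Hoxd4 (0.08), overlapped between the groups.

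**Figure D2:**
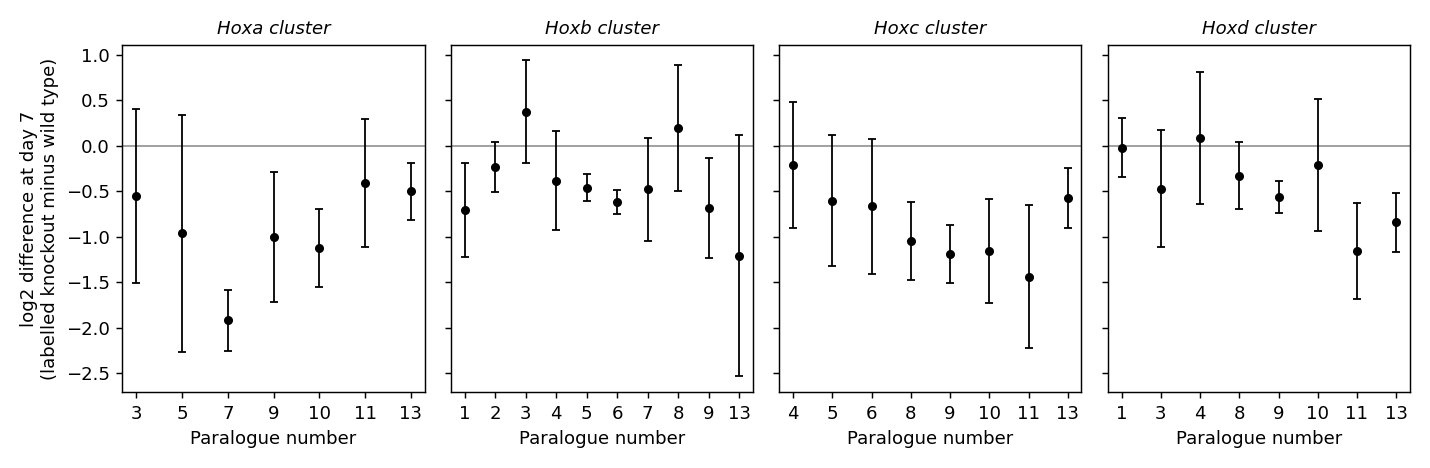
log2 difference at day 7 (labelled knockout minus wild type) of Hox genes tested with counts at day 7, by cluster and paralogue number from anterior to posterior; points are estimates and bars are 1 SE. Most points lie below 0, with Hoxa7 at -1.92 the lowest, and Hoxb3, Hoxb8 and Hoxd4 lie above it.

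Embryonic globins and imprinted growth genes were among the lower values. Hba-x, the embryonic alpha-like globin, had 5.08, 5.71 and 6.19 CPM against 16.6, 12.8 and 11.7 CPM (-1.28, SE 0.21, adjusted p = 0.258). Hbb-bh1, an embryonic beta-like globin, had 3.76, 3.61 and 3.03 CPM against 7.38, 6.34 and 7.39 CPM (-1.02, SE 0.22, adjusted p = 0.384). DESeq2 called both. Cd34 (-1.56, SE 0.36) and Etv2, the factor that starts the blood and endothelial programme (-0.43, SE 0.19), were likewise apart. The whole list of 16 endothelial and blood genes held 6 positive members and had a median of -0.11. In every labelled knockout library 5 of them were lower and 2 higher than in every wild type library. The summed level of the list overlapped, at 413 to 456 CPM against 407 to 471 CPM. Globin genes have close copies, so that their counts are uncertain where reads could be split between them.

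Of 25 imprinted genes tested, 12 were lower and 0 higher in every labelled knockout library, and the median was -0.13 with 7 positive. None passed by edgeR, 3 did by DESeq2 and 7 lower ones had an unadjusted p under 0.05. Igf2 (chr7:142650766-142666816), the fetal growth factor of the paternal chromosome, had 715, 444 and 727 CPM against 1379, 1353 and 1237 CPM (-1.07, SE 0.32, adjusted p = 0.465). Meg3 (chr12:109541001-109571726), the maternal noncoding RNA of the Dlk1 domain, had 631, 619 and 639 CPM against 1172, 957 and 960 CPM (-0.71, SE 0.15, adjusted p = 0.239). The members of that domain did not overlap between the groups: Rtl1 differed by -0.78 (SE 0.21), Dlk1 by -0.84 (SE 0.33), Mirg by -0.61 (SE 0.21) and Rian by -0.39 (SE 0.12). These include genes expressed from either parental chromosome. Meg3 reads lay almost wholly on genome 1, with at most 0.0834% from genome 2 in any library. Genome 2 shares on chromosome 12 averaged 10.27% in the labelled knockout and 10.34% in wild type. Gsc and Foxa1, which are on that chromosome and not on the imprinted list, had no genome 2 reads. Twist1, also on that chromosome and outside the list, went the other way, with 100% of its reads from genome 2 in every library. Dnmt3a, likewise outside the list, had reads from both genomes. Reads from a single genome were thus not confined to imprinted genes there. The Meg3 share is therefore no test of its imprint. Phlda2, a maternally expressed gene that restrains placental growth, had 12.6, 13.5 and 13.6 CPM against 20.97, 20.1 and 16.0 CPM (-0.53, SE 0.13).

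Epithelial genes had the highest median, 0.26, with 8 of 10 positive, 2 higher in every labelled knockout library and none lower. Cdh1, which encodes E-cadherin, had 218, 216 and 220 CPM against 154, 188 and 161 CPM (0.38, SE 0.12, adjusted p = 0.465). Esrp1, an epithelial splicing regulator, had 17.2, 19.7 and 18.8 CPM against 16.5, 12.6 and 13.9 CPM (0.37, SE 0.20). The keratins went the other way, with Krt18 at 1603, 1541 and 1549 CPM against 2222, 1925 and 1868 CPM (-0.36, SE 0.11) and Krt8 at -0.20 (SE 0.13). Among 15 trophoblast and surface ectoderm genes, which hold these keratins and Cdx2 (-0.36, SE 0.21), 5 were lower and none higher in every labelled knockout library, with a median of -0.06. No gene of either list passed by edgeR or DESeq2. At an unadjusted p under 0.05 there were 2 higher epithelial genes and 1 lower trophoblast gene.

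Other lineages differed little. Of 12 neural genes tested 7 were positive and 2 apart higher, with a median of 0.16 that lay between 0.02 and 0.10 when any 1 library was left out. Tubb3, a neuronal tubulin, had 85.2, 86.0 and 82.9 CPM against 69.4, 81.1 and 65.8 CPM (0.23, SE 0.08). The median was -0.04 for 17 cardiac and smooth muscle genes, -0.01 for 9 mesenchymal genes, -0.06 for 8 definitive endoderm genes and -0.09 for 11 primitive endoderm genes. None of these 5 lists held a gene called by edgeR or DESeq2, and together they had 3 genes with an unadjusted p under 0.05, Tubb3, Tnni1 and Ttr. Markers of feeder fibroblasts, cells on which ES cells are often grown, leaned lower, as the lateral plate list did. Of 12 such genes 2 were positive and 6 were lower in every labelled knockout library, the sum was 1431 to 1461 CPM against 1720 to 1952 CPM, and none was at 0 in all libraries. Col1a2 had 56.3, 55.02 and 56.3 CPM against 92.1, 101 and 90.3 CPM (-0.76, SE 0.15, adjusted p = 0.235), from about 1 CPM on day 0 (1.11 and 0.955). Their part in the lateral plate result was not tested. The 14 listed genes of the 2-cell-like state summed to 2.30 to 2.55 CPM against 2.35 to 3.10 CPM.

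Translation genes were lower as a broad group of small differences. Of 79 cytosolic ribosomal protein genes, 76 were negative, the median was -0.24, and 60 were lower and 0 higher in every labelled knockout library. None passed by edgeR and 1 passed by DESeq2, while 38 had an unadjusted p under 0.05, all lower. All 32 small subunit genes were negative, with 28 apart, and 44 of 47 large subunit genes, with 32 apart. Without wild type replicate 3, 63 of the 79 were apart, beside 21.2% of all genes. Rpl27 had 615, 588 and 597 CPM against 773, 724 and 694 CPM (-0.28, SE 0.08). Rps18 had 712, 734 and 706 CPM against 927, 866 and 811 CPM (-0.27, SE 0.08). The groups did not overlap for either gene. The 3 positive genes, Rpl21, Rpl29 and Rpl30, had groups that overlapped. Ribosomal protein genes have many processed pseudogenes, so that single counts are uncertain.

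The same genes took 6.02, 5.92 and 5.95% of all counts in the labelled knockout and 7.07, 6.34 and 6.51% in wild type, or 5.96 ± 0.0510% against 6.64 ± 0.379% (SD, n = 3). The groups did not overlap, and the difference of -0.68 percentage points had an exact two-sided permutation p of 0.1, the smallest that 3 against 3 libraries allow. Wild type replicate 1 was the highest, and the difference lay between -0.83 and -0.47 when any 1 library was left out. Mitochondrially encoded genes took 3.22, 3.603 and 3.32% against 2.83, 2.92 and 3.28%, with groups that overlapped between labelled knockout replicate 1 and wild type replicate 3 (difference 0.37, exact two-sided permutation p = 0.2).

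**Figure D3:**
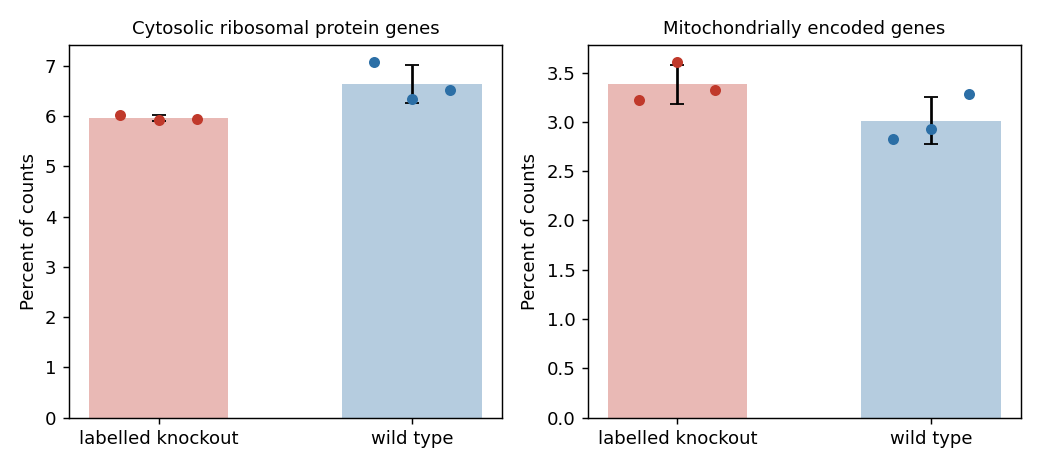
Share of all counts taken by cytosolic ribosomal protein genes (left) and by mitochondrially encoded genes (right) at day 7; points are libraries, bars are means and error bars are 1 SD of n = 3. The 3 labelled knockout libraries sit at 5.92 to 6.02%, below wild type at 6.34 to 7.07% for ribosomal proteins, and at 3.22 to 3.603% against 2.83 to 3.28% for mitochondrially encoded genes.

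Other steps of translation leaned the same way. In the mitochondrial ribosome 7 of 80 genes were positive, the median was -0.15, 34 were lower and 2 higher in every labelled knockout library, and the 2 were Mrps23 and Mrps12. Mrps12, another small subunit protein gene, had 31.2, 30.3 and 31.1 CPM against 17.7 to 23.8 CPM (0.54, SE 0.18). In the gene counts Mrps23 thus rose while 73 of the 80 genes had negative differences. Among 38 initiation factors 9 were positive and 16 apart lower (median -0.10). Eif3c, a core subunit of the factor that recruits the small subunit to mRNA, had 687, 688 and 679 CPM against 857, 851 and 820 CPM (-0.30, SE 0.05, adjusted p = 0.0893), and DESeq2 called it. Elongation and termination factors had a median of -0.09, with 4 of 12 apart lower and 1 higher. Eef1a1, which delivers aminoacyl tRNA to the ribosome, had 6215, 6226 and 6191 CPM against 6944, 7181 and 6741 CPM (-0.16, SE 0.04). Apart from Mrps23 edgeR called no gene of these 3 lists. At an unadjusted p under 0.05 they held 2 higher and 27 lower genes.

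RNA polymerase I and ribosome biogenesis genes, the closest to the known place of action of SIRT7, had a median of -0.12 with 3 of 41 positive and 13 apart lower. Ubtf, the factor that keeps ribosomal DNA open for transcription, had 160, 154 and 145 CPM against 181, 178 and 178 CPM (-0.23, SE 0.07, adjusted p = 0.465). Pes1, a nucleolar factor of large subunit maturation, had 252, 250 and 249 CPM against 285, 281 and 269 CPM (-0.15, SE 0.05). The labelled knockout libraries were below wild type for both. None of the 41 passed by edgeR or DESeq2, and 4 lower ones had an unadjusted p under 0.05. The spread within the labelled knockout group was small, and the range of the list's differences, -0.31 to 0.03, was narrow.

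Genes of amino acid supply were lower in the labelled knockout. This programme is run by the integrated stress response, in which phosphorylated eIF2 alpha raises translation of the transcription factor ATF4, and ATF4 binds C/EBP-ATF response elements at genes of amino acid synthesis, uptake and tRNA charging. Of 14 amino acid genes of this response 1 was positive, 9 were lower and 0 higher in every labelled knockout library, and the median was -0.27. None passed by edgeR, 4 passed by DESeq2, and 8 lower ones had an unadjusted p under 0.05. The 11 regulators of the response, Atf4 among them, had a median of -0.09 with 4 positive and 1 apart lower. The promoters of Asns, on this list, and of Gars and Yars, on the list of aminoacyl tRNA synthetases, are shown as examples with a full match to TGATGNAA, a core of the response element, on either strand. The sequences from RefSeq (GRCm38.p6, 250 bases before to 50 after the start site, read on the strand of the gene) are printed with the match in capitals.
Asns chr6:7693160-7693459, minus strand: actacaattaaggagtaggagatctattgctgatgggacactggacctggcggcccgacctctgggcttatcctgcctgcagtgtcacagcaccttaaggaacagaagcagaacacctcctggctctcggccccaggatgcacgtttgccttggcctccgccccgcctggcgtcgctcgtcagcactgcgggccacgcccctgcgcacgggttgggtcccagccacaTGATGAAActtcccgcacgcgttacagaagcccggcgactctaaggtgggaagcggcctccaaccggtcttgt
Gars chr6:55037751-55038050, plus strand: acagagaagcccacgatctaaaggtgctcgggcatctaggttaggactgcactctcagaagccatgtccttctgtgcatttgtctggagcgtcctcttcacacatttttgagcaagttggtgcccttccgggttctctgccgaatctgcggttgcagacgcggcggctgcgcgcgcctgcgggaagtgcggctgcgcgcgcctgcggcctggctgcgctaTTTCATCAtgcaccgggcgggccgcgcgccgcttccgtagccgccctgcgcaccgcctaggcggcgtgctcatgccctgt
Yars chr4:129189653-129189952, plus strand: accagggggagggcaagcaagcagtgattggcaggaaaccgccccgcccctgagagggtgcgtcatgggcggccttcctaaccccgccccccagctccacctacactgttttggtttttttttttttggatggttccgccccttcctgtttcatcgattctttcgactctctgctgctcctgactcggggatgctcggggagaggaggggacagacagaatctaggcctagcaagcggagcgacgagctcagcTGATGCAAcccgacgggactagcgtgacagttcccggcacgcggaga
The match begins at position -23 from the start site in Asns, at -30 in Gars, where it lies on the other strand, and at 3 in Yars. In all, 4 of 13 amino acid genes with a matched promoter (30.8%) held the motif. So did 5 of 13 cytosolic aminoacyl tRNA synthetase genes (38.5%), 1096 of 27025 promoters (4.06%) and 0 of 58 ribosomal protein promoters. The amino acid genes were listed as members of this response, and tRNA charging genes are among its known targets. A high share of the motif was thus built into the choice of lists. Whether ATF4 had a part in the lower values was not tested.

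Asns, asparagine synthetase, had 116, 115 and 108 CPM against 161, 145 and 157 CPM (-0.45, SE 0.07, adjusted p = 0.0622). Phgdh, the first enzyme of serine synthesis, had 123, 117 and 127 CPM against 194, 162 and 159 CPM (-0.49, SE 0.08, adjusted p = 0.131). Shmt2, the mitochondrial serine hydroxymethyltransferase, had 192, 183 and 189 CPM against 274, 251 and 229 CPM (-0.42, SE 0.07, adjusted p = 0.159). Slc7a5, the large neutral amino acid transporter, had 163, 162 and 161 CPM against 269, 237 and 222 CPM (-0.58, SE 0.12, adjusted p = 0.235). All 4 had narrow labelled knockout values below every wild type value, and these are the 4 that DESeq2 called. Its partner subunit Slc3a2 (-0.30, SE 0.09) and Psph, Mthfd2, Aldh18a1 and Pycr1 were apart as well, whereas Psat1, Chac1, Slc7a11, Stc2 and Vldlr overlapped. Atf4 itself varied within groups, at 131, 352 and 132 CPM against 377, 146 and 317 CPM (-0.45, SE 0.58).

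Aminoacyl tRNA synthetases, which charge tRNAs with amino acids, had a median of -0.10, with 3 of 20 positive, 11 apart lower and 1 higher. Sars (seryl) had 167, 150 and 155 CPM against 244, 200 and 204 CPM (-0.46, SE 0.09, adjusted p = 0.223). Yars (tyrosyl), whose promoter is printed above, had 143, 143 and 146 CPM against 186, 174 and 175 CPM (-0.31, SE 0.07, adjusted p = 0.269). Gars (glycyl) had 364, 334 and 337 CPM against 408, 407 and 387 CPM (-0.22, SE 0.06). The groups did not overlap for any of the 3. None of the 20 passed by edgeR, 2 passed by DESeq2 (Sars and Yars), and 6 lower ones had an unadjusted p under 0.05.

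Metabolic genes divided by pathway and by genome. Among 72 nuclear genes of the respiratory chain 6 were positive, the median was -0.15 and 33 were lower and 0 higher in every labelled knockout library. None passed by edgeR, 1 passed by DESeq2 and 12 lower ones had an unadjusted p under 0.05. Complex I, the NADH dehydrogenase, had the lowest median of the complexes (-0.21, 19 of 37 apart lower), followed by ATP synthase (-0.13), complex III (-0.11) and complex IV (-0.05). Ndufa6, an accessory subunit of complex I, had 32.7, 30.5 and 31.9 CPM against 41.3, 39.2 and 35.7 CPM (-0.29, SE 0.08, adjusted p = 0.448; DESeq2 adjusted p = 0.0324). The 13 mitochondrially encoded genes went the other way, with 12 positive, a median of 0.13 and 4 apart higher. mt-Nd2, a complex I subunit encoded in the mitochondrion, had 1839, 2056 and 1941 CPM against 1455, 1697 and 1781 CPM (0.24, SE 0.10). None of the 13 passed by edgeR or DESeq2 and 2 had an unadjusted p under 0.05. All 13 come from shared polycistronic transcripts and are not independent of each other.

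Glycolysis genes held differences in both directions. The median of 26 genes was -0.13 with 6 positive, 10 apart lower and 1 higher. Slc2a1, the main glucose transporter of these cells, had 2606, 2616 and 2595 CPM against 3358, 3252 and 3005 CPM (-0.30, SE 0.07, adjusted p = 0.299). Aldoa, a glycolytic aldolase, had 566, 499 and 523 CPM against 828, 728 and 694 CPM (-0.50, SE 0.10, adjusted p = 0.222), and both genes were lower in every labelled knockout library. Pfkfb3, which makes the allosteric activator of phosphofructokinase, had 67.1, 78.9 and 75.8 CPM against 35.2, 52.8 and 24.7 CPM (0.98, SE 0.26, adjusted p = 0.409). Its allele-resolved reads, not scaled to library size, did not show that rise. They were 740, 420 and 589 against 959, 1052 and 552 from genome 1, and 509, 136 and 525 against 752, 1142 and 474 from genome 2. Why the readouts differ was not tested. DESeq2 called Slc2a1, Aldoa and Pfkfb3. Slc2a3, a second glucose transporter, had 164, 916 and 898 CPM against 143, 209 and 162 CPM (1.94, SE 0.54), so that labelled knockout replicate 1 lay among the wild type libraries. Its genome 1 reads, not scaled to library size, had another order, at 8097, 6642 and 1385 against 1488, 3345 and 6264. The level of Slc2a3 in single libraries is therefore uncertain. No gene of the list passed by edgeR, and 3 higher and 6 lower ones had an unadjusted p under 0.05.

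Cholesterol synthesis genes had a median of -0.09, with 2 of 23 positive and 10 apart lower. Mvd, the mevalonate diphosphate decarboxylase, had 254, 248 and 256 CPM against 351, 325 and 292 CPM (-0.35, SE 0.08, adjusted p = 0.299), and DESeq2 called this member alone. Fdps, which makes farnesyl diphosphate, had 300, 287 and 289 CPM against 395, 352 and 346 CPM (-0.32, SE 0.12). Both enzymes had all labelled knockout values below wild type. The citric acid cycle (median -0.05, 22 genes), fatty acid synthesis (-0.04, 12 genes), fatty acid oxidation (0.00, 15 genes) and pentose phosphate and nucleotide genes (-0.06, 22 genes) lay near the median of all genes. In the last list Tkt, transketolase, had 819, 777 and 792 CPM against 937, 952 and 885 CPM (-0.22, SE 0.06). Impdh1 stood opposite in the gene counts, at 86.6, 90.6 and 88.2 CPM against 42.7, 47.0 and 44.2 CPM, though not in its allele-resolved reads given above. EdgeR called no gene of these 5 lists, and 2 higher and 10 lower ones had an unadjusted p under 0.05.

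Isoform use differed in genes whose total level did not. The share of each transcript was taken as a percent of the counts of its gene, and edgeR called 91 of 9394 genes with at least 2 transcripts tested (0.969%), of which 1, Mrps23, was also called at the gene level. On simulated counts this test called unchanged genes more often than its threshold allows, and calls shared with limma's voom test were far fewer, so the 39 genes called by both are the firmer set by that measure. Of the 91 genes 49 were called in the day 7 libraries alone and 16 in every fit without 1 library. In 74 of the 91 genes at least 1 transcript share did not overlap between the groups, compared with 25.7% of all genes tested. The median of the largest share difference was 22.3 percentage points, and 6.85 over all genes tested. Because the 91 genes were chosen by a test on these same libraries, both contrasts describe them and are no further support for the calls. StringTie divides reads between transcripts that share most of their exons, so that a share is an estimate, and in some genes the shares ran from near 0 to near 100% between replicates of 1 group.

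The largest shift among the 12 genes chosen by rule was in Ipo4, which encodes importin 4, an import receptor of histones and ribosomal proteins. Ipo4-201, the full coding form with 30 exons and 1082 codons, had 0, 0 and 0% of Ipo4 counts in the labelled knockout and 71.5, 81.6 and 92.0% in wild type. Ipo4-209, annotated as a target of nonsense-mediated decay with 29 exons and 98 codons, had 92.1, 92.7 and 92.6% against 24.6, 15.7 and 5.53%. The groups were wholly apart (adjusted p = 0.000521 by edgeR, 0.00114 by voom), while the gene total differed by -0.23 (adjusted p = 0.651). On day 0 Ipo4-201 took 95.0 ± 2.83% in the labelled knockout and 68.2 ± 49.7% in wild type (SD, n = 3), and a spread this wide shows that the form is not fixed within a group. The forms have 3846 and 3474 bases and differ at both ends as well as inside. The coding bases of Ipo4-201 that Ipo4-209 lacks are the exon at chr14:55634280-55634409 (GRCm38), whose length of 130 bases leaves a remainder of 1 on division by 3. It is printed from the GENCODE transcript in capitals, with 20 bases of the neighbouring exons on each side.
Ipo4-201: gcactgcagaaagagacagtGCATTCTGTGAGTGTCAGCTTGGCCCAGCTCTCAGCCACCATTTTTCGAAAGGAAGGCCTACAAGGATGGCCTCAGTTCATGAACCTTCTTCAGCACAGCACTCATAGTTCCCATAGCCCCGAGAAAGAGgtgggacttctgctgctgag

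Fn1, which encodes fibronectin, the main adhesive glycoprotein of the mesodermal matrix, had a mean of 1750 CPM over the day 7 libraries. Its full coding form Fn1-201, of 2477 codons, took 89.8, 89.1 and 89.6% of the counts in the labelled knockout and 72.9, 74.96 and 55.6% in wild type. Fn1-202, a shorter form with a retained intron, took 5.83, 5.22 and 7.68% against 17.2, 16.9 and 31.5%. The labelled knockout libraries were closely alike and apart from wild type, where replicate 3 was the farthest (adjusted p = 0.000192 by edgeR, 0.00565 by voom). Fn1 was called without any 1 of the 6 libraries, with an adjusted p of at most 0.021, and its gene total differed by -0.10.

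Slc5a6, the sodium-dependent vitamin transporter for biotin and pantothenate, changed between forms with the same 634 codons. Slc5a6-202 took 67.7, 69.8 and 76.5% in the labelled knockout and 0, 0 and 0% in wild type. Slc5a6-201 took 0, 1.02 and 1.04% against 67.7, 32.5 and 37.3%, and Slc5a6-205 0.958, 0 and 1.04% against 10.2, 63.9 and 57.9%. The forms differ in their noncoding first exon, and the wild type libraries used the other ones, in proportions that differed between them (adjusted p = 0.00457 by edgeR, 1.99e-06 by voom). On day 0 Slc5a6-202 was the main form in both groups, with 74.2 ± 10.3% and 78.2 ± 5.63%. As a single transcript it rose at least 750-fold against a floor of 3 counts, from 0 in wild type to 565, 480 and 590 counts. It was 1 of 4 transcripts that passed among 45599 tested (0.00877%). The others were Rnf180-205, with 0 counts against 51, 56 and 24 (at least 31.7-fold lower), and the single tested forms of Aoah and Ankrd45.

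Several switches concerned short pieces of the transcript. Pdrg1, a prefoldin-like gene, had a decay form, Pdrg1-206, at 0, 0 and 0% in the labelled knockout and 33.5, 24.8 and 35.8% in wild type, while Pdrg1-201 took 88.0, 90.3 and 79.7% against 60.8, 52.2 and 51.0%. Pdrg1-206 holds 26 extra bases (chr2:153015208-153015233) and reads 39 codons in place of 133. Supt3 encodes a subunit of the SAGA coactivator, and its form Supt3-202, which lacks 80 bases of Supt3-201 (chr17:45041307-45041386), took 0, 0 and 0% against 6.38, 13.4 and 19.7%. In Mrps36 the form Mrps36-202 took 19.9, 19.7 and 24.9% against 9.15, 7.65 and 13.2%; it lacks 6 bases of Mrps36-203 (chr13:100739196-100739201), so that the frame is kept with 100 codons in place of 102. These pieces are printed in capitals between 20 bases of flank, as GENCODE gives them.
Pdrg1-206: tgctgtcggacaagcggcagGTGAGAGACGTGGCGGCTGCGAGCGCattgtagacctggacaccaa
Supt3-201: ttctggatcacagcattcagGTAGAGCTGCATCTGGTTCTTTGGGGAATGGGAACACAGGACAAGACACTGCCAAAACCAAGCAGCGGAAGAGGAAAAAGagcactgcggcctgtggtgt
Mrps36-203: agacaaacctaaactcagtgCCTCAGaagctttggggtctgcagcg
All 3 genes were called by both tools, and each listed share kept the groups apart. The call of Supt3 was lost in each fit without 1 library (adjusted p up to 0.199), and that of Mrps36 held in all 6 such fits.

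Rara, the retinoic acid receptor alpha, had Rara-204 at 60.4, 63.8 and 66.6% against 18.9, 19.7 and 18.8% (adjusted p = 0.00408 by edgeR). Rara-201 encodes the same 462 codons, and the sum of both was 60.7, 63.9 and 66.9% against 29.3, 29.4 and 79.5%, so that at the level of the protein form the groups overlapped through wild type replicate 3. Among the other genes chosen by the same rule, Snhg1, a noncoding host of small nucleolar RNAs, and Zfp644 were called by both tools, and Trmt1 (voom adjusted p = 0.726) and Asxl2 (0.114) by edgeR alone. Of the 12 genes 4 (Fn1, Ipo4, Mrps36 and Slc5a6) were called in every fit without 1 library.

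**Figure D4:**
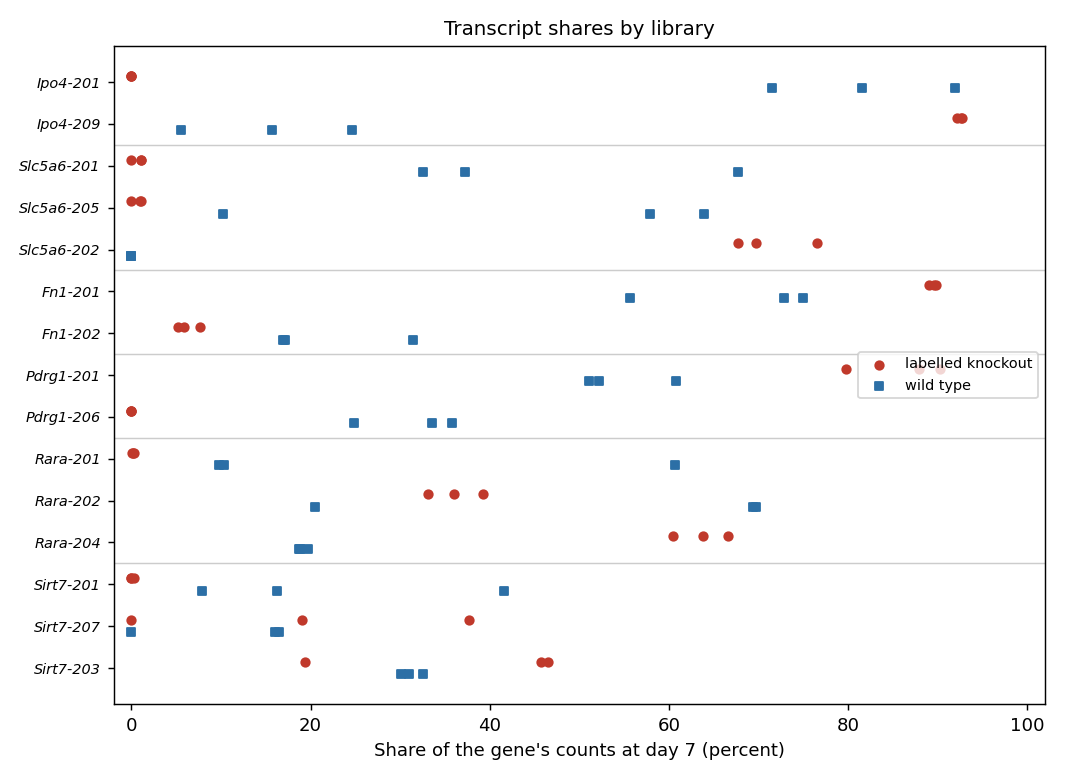
Share of the counts of a gene taken by each transcript at day 7 (percent); points are libraries, circles for labelled knockout and squares for wild type. Ipo4-201 is at 0% in the 3 labelled knockout libraries and at 71.5 to 92.0% in wild type, while the squares of Rara-201 and Rara-202 and the points of Sirt7-207 spread widely within a group.

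The genes that control splicing differed little. Of 63 splicing regulators 22 were positive, the median was -0.05, and 13 were lower and 5 higher in every labelled knockout library. Srsf4, an SR protein that binds exonic enhancers, had 122, 128 and 135 CPM against 162, 161 and 151 CPM (-0.30, SE 0.07, adjusted p = 0.299), and DESeq2 called this member alone. Clk1, a kinase of SR proteins, had 49.1, 53.1 and 54.3 CPM against 41.9, 45.2 and 42.8 CPM (0.27, SE 0.09). Both genes had groups that did not overlap. The core spliceosome had the lowest median of the 4 subgroups (-0.11, 6 of 12 apart lower). None of the 63 passed by edgeR, and 3 higher and 7 lower ones had an unadjusted p under 0.05.

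No gene passed the test of allelic balance. The test is not informative for genes such as T and Evx1, where every allele-resolved read came from genome 1 in each library. How many of the genes tested were of this kind was not counted. A minimum of 20 reads assigned to a parental genome in each day 7 library left 11032 genes, of which 0 (0%) passed by edgeR, and 241 had an unadjusted p under 0.05. No other tool was run on this test. The mean genome 2 share per chromosome ran from 2.95 to 89.5% over 20 chromosomes, and the genotypes differed by at most 0.617 percentage points on any of them. For Mrps23 the genome 2 share was 68.7, 65.4 and 68.1% against 64.0, 70.3 and 66.3%, so that the shares overlapped between the groups and both alleles contributed. The median gene difference of an autosome or of the X chromosome lay between -0.08 and 0.02. The cells are given as female, yet 4 genes annotated to the Y chromosome had a mean log2 CPM of at least 2. Their median difference was -0.36, with 1 positive. Their median deviation from the wild type mean was -0.26, -0.31 and -0.35 in the labelled knockout against 0.10, 0.04 and -0.05. The source of these reads was not tested.

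Whether a day 7 difference was particular to that day was tested as the interaction of genotype and day, which called 5 genes (0.026%): Aoah, Morc1, Ankrd45, Esrrb and Epha4. Mrps23 was not among them (-0.15, SE 0.14, adjusted p = 0.909). Several lists had day 0 medians near those of day 7: -0.55 for Hox genes, which are low on day 0, -0.15 for the nuclear respiratory chain, -0.13 for the mitochondrial ribosome and 0.14 for mitochondrially encoded genes. Cytosolic ribosomal proteins stood at -0.14 on day 0. The difference of these medians between the days was not tested. For Esrrb, an orphan nuclear receptor of naive cells, the genotypes differed by 2.40 on day 0 and by -0.52 (SE 0.24) at day 7, where it had 2.26, 2.26 and 2.58 CPM against 3.51, 3.74 and 2.86 CPM. Epha4, an ephrin receptor, differed by 2.06 on day 0 and 0.01 at day 7. Without knockout replicate 3 the interaction called 0 genes, without knockout replicate 1 it called 8 and without wild type replicate 1 it called 9.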

How the data were processed

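RNA-seq of polyA RNA from 12 libraries was deposited by the authors as gene and transcript tables of expected counts from StringTie, with further tables of counts assigned to each parental genome. Per the submitters' processing notes the tools included StringTie 1.3.3 and HISAT2 2.1.0, with FastQC 0.11.3, DESeq2 1.32.0, Trimmomatic 0.36 and SAMtools 0.1.19. Annotation release, strand setting and other options were not found in the labels or headers, so counts of overlapping, antisense or near-identical genes are uncertain.

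Groups came from the genotype and day in the labels. The members and gene lists were chosen with earlier results of these data known. Counts were rounded and fitted over all 12 libraries by genotype and day with TMM factors, edgeR's quasi-likelihood test (edgeR 4.0.16, R 4.3.3) and Benjamini-Hochberg adjustment at 0.05, after a filter on low counts. DESeq2 1.42.0 was the alternative. Isoform use was tested with edgeR's diffSpliceDGE and with limma 3.58.1 (voom and diffSplice), and allelic balance with edgeR on day 7 libraries. The procedures were tested on simulated data. Day 7 library totals were 25190483 to 69079368 counts, and the spread between libraries, which exceeded counting noise, limits the precision. Of genes that share a symbol in a list, the one with most counts was used.

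Genes named are Sirt7, every called gene up to 30, the 10 largest differences in each direction (groups apart, unadjusted p no higher than 0.01, log2 CPM averaging 2 or more, no placeholder symbols), up to 4 members per list by p, and 12 isoform genes by adjusted p (mean of at least 5 CPM, share difference of at least 10 points). Other list members were named after their values were seen. Gene IDs were matched to GENCODE M21 (GRCm38) for 55141 of 55487 genes and 141374 of 142699 transcripts. RefSeq promoters were matched by symbol. Alternatives were another tool, DESeq2 size factors in edgeR, no low-count filter, day 7 alone, a replicate block, the treatment label as a term and leaving out each library. Germline list medians are not given because 5 members had a group at 0. A few genes and their results are not reported here.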

Additional observations from a re-analysis of the deposited data

Results flagged for a closer look

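The genotype difference depended on the day for 5 genes in edgeR's quasi-likelihood test of the interaction (day 7 difference minus day 0 difference, log2). It was -6.20 for Aoah (SE 0.55, adjusted p = 0.0152), -3.99 for Morc1 (SE 0.46, adjusted p = 0.0152) and -6.65 for Ankrd45 (SE 0.73, adjusted p = 0.0301). Aoah and Ankrd45 had no count in the labelled knockout at day 7, so their fitted values depend on the prior count and are no bounds.

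Esrrb had an interaction of -2.92 (SE 0.32, adjusted p = 0.0152). On day 0 it had 205, 315 and 173 CPM in the labelled knockout against 54.5, 38.5 and 38.5 CPM in wild type, and at day 7 the order was the opposite at a low level. Epha4 had an interaction of -2.05 (SE 0.24, adjusted p = 0.0152). Its day 0 levels were 50.2, 34.7 and 32.0 CPM against 9.63, 9.93 and 8.44 CPM, and its day 7 levels were 49.7, 53.5 and 46.0 CPM against 44.1, 56.3 and 47.7 CPM. The groups were apart on day 0 and overlapped at day 7.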

How the results depend on the processing

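No value changed direction among those with a call. The 5 genes differing at day 7 became 163 with DESeq2, 9 with day 7 libraries alone (2 of the 5 shared) and 6 to 13 when 1 library was left out (13 without knockout replicate 1, 8 without knockout replicate 3, 8 without wild type replicate 2). The 4 transcripts became 638 with DESeq2, 2 with no filter on low counts, 0 with day 7 alone, 2 with the treatment label as a term and 4 to 18 without 1 library (15 without knockout replicate 1, 18 without knockout replicate 2, 9, 15 and 14 without wild type replicates 1, 2 and 3). The 91 genes with a difference in isoform use became 137 with voom, 39 when called by both tools (chosen after seeing the data), 37 with transcripts of at least 1 CPM and 72 to 130 without 1 library. The 5 interactions became 143 with DESeq2 and 0 to 9 without 1 library (0 without knockout replicate 3, 8 without knockout replicate 1, 9 without wild type replicate 1). The cause of these changes was not tested. Calls in allelic balance were 0 in every alternative run.

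With a replicate block the counts were 2 genes (both among the 5), 1 transcript, 31 genes for isoform use (26 shared) and 0 interactions. Labelled knockout and wild type libraries of the same number did not deviate together at day 7 (r = 0.050, -0.020 and 0.096), so the samples share only a number. Mrps23 and H2aj passed in all 12 alternatives, which all used the gene counts. Their allele-resolved reads did not repeat either separation of the groups. Morc1, Aoah and Ankrd45 did not pass with the block, nor Morc1 in day 7 alone (-3.80), where the low-count filter left Aoah and Ankrd45 untested. Of 340 alternative medians of lists, 286 moved by less than the spread. The lower counts of single genes limit Aoah, Ankrd45 and the 2-cell-like list, whose median ran from -0.53 to 0.11 without 1 library. The list counts without wild type replicate 1 or 3 were added after seeing the data: 62 and 63 of 79 ribosomal protein genes and 21 and 20 Hox genes were then apart lower, beside 16.7 and 21.2% of all genes.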
